A study of Homo sapiens with 29 samples.

Results

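The genes described here are the 1301 of 4592 listed protein-coding genes that are at least 120 kb and less than 200 kb wide, taken from both deposited tables and joined on the Ensembl identifier. The window in which wave peaks were called reaches 2 kb upstream and 120 kb downstream of the transcription start site (TSS), so in each of these genes the whole downstream window lies inside the gene. The narrowest is 120026 bp wide, the widest 199873 bp and the median 149807 bp, and the nearest genes outside the bounds are 119998 and 200055 bp wide. The labels and tables come from DRB/TTchem-seq in HEK293, a human embryonic kidney cell line, which had been transduced for 4 days with lentivirus carrying a control hairpin (shCtrl, here control) or a hairpin against THOC5 (shTHOC5). All cells, controls included, received 100 μM DRB. RNA labelled with 4-thiouridine was sequenced 10, 20, 30 and 40 min after the drug was washed out, with 1 library for each condition and time and 8 libraries in all. Each condition therefore rests on cells of 1 line with no replicate library at any time, no test between conditions was made, and all values below are descriptions of these libraries. THOC5 is not listed, so neither its depletion nor the identity of the cell line was checked here.

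RNA polymerase II (Pol II) pauses shortly after it starts a transcript and is released into the gene body by the kinase CDK9, which DRB inhibits. When DRB is washed out, the paused polymerases leave together, and the newly made RNA forms a wave whose peak moves away from the TSS with time. THOC5 is a subunit of the THO complex, which binds nascent transcripts, takes part in assembling them into export-competent particles and is linked to transcription elongation. In a long gene the wave is still far from the gene end at the last release time, and a gene can also carry promoters inside its body, from which a wave of its own can start.

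Gene models were those of GENCODE release 44 (GRCh38). The listed width was found there for 1249 of the 1301 genes. The starts of NR3C1, BCOR and NMT1 are printed to show what stood at the position from which distances are counted and what stood at an annotated start inside the gene near which the wave peaks were called. Each sequence covers 220 bases before and 30 bases after the start, is read 5′ to 3′ in the direction of the gene, and has its CG dinucleotides in capitals. NR3C1, the glucocorticoid receptor gene, has its gene start at chr5:143435483-143435732 on the minus strand with 0 CG dinucleotides and an internal start 32.2 kb downstream at chr5:143403300-143403549 with 23. BCOR, which encodes a corepressor of BCL6, has its gene start at chrX:40177300-40177549 on the minus strand with 4 CG dinucleotides and an internal start 81.1 kb downstream at chrX:40096163-40096412 with 15. NMT1, an N-myristoyltransferase gene, has its gene start at chr17:44957772-44958021 on the plus strand with 3 CG dinucleotides and an internal start 103.7 kb downstream at chr17:45061459-45061708 with 9.
NR3C1 gene start: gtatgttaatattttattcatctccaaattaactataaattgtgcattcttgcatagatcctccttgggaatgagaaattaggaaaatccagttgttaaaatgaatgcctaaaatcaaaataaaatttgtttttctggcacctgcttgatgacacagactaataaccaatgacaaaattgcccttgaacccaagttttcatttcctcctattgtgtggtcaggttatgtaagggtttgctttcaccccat
NR3C1 internal start: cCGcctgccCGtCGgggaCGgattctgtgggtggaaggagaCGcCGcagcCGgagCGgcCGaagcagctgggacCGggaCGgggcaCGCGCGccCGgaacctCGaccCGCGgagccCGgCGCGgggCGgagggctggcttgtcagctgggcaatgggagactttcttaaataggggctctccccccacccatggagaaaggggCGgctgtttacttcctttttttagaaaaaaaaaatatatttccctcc
BCOR gene start: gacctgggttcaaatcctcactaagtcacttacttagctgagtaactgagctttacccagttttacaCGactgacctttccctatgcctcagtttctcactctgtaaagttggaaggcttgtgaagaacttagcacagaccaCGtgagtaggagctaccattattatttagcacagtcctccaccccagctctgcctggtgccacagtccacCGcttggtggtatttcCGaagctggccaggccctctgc
BCOR internal start: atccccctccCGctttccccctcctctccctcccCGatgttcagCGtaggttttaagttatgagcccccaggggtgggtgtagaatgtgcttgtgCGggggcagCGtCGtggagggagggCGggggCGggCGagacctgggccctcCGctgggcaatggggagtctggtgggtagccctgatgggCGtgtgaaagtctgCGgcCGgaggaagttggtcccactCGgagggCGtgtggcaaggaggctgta
NMT1 gene start: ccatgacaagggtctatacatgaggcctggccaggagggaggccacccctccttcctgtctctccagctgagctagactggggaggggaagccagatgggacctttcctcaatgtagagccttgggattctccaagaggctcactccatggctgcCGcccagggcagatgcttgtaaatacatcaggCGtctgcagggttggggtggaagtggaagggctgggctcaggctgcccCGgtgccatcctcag
NMT1 internal start: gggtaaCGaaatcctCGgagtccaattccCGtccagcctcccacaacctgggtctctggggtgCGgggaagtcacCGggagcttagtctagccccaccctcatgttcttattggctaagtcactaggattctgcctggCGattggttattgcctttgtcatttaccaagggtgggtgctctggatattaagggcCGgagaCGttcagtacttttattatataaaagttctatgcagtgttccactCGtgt

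Of the 1301 genes, 560 (43.0%) had a coverage of at least 100 rpm, that is, reads scaled to a fixed total over the listed genes, in both series and are called measured here. Another 44 reached this floor only in control cells, 106 only in shTHOC5 cells and 591 in neither. The measured genes had a median coverage of 230 rpm in control and 252 rpm in shTHOC5 cells, and the most highly covered reached 2378 and 2027 rpm. All 1301 genes together held 20.3% of the coverage of the listed genes in control and 20.8% in shTHOC5 cells. The tables give rpm only, so the number of reads behind a wave peak is unknown.

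In the measured genes the median wave peak of control cells lay 2.28, 4.73, 7.94 and 9.69 kb past the TSS at 10, 20, 30 and 40 min. In shTHOC5 cells the median was the first position of the window, 2.00 kb upstream of the TSS, at 10 min, and then 3.30, 5.74 and 8.19 kb. The median was thus nearer the TSS in shTHOC5 cells at each of the 4 times. The upper quartile of control cells lay at 46.8, 9.96, 33.3 and 30.4 kb at 10, 20, 30 and 40 min, whereas that of shTHOC5 cells lay at 3.08, 6.44, 8.78 and 21.4 kb. Above their upper quartile, control genes at 10 min therefore had a wave peak well beyond the distance of the later medians, and this long tail was shorter in shTHOC5 cells.

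The wave peak was called at the first position in 233 measured genes of control cells and 351 of shTHOC5 cells at 10 min. At 20 min these numbers were 171 and 164, at 30 min 113 and 110, and at 40 min 78 and 75. In control cells these were 41.6%, 30.5%, 20.2% and 13.9% of the genes, beside 36.3%, 25.5%, 15.5% and 11.7% of all measured listed genes. In shTHOC5 cells they were 62.7%, 29.3%, 19.6% and 13.4%, beside 54.2%, 28.2%, 18.9% and 11.4%. The series therefore differed mainly at 10 min, in this class as in all measured listed genes. At that time 226 genes of this class stood at the first position in both series. Another 57, with a control wave peak between the TSS and 5 kb, stood there in shTHOC5 cells only. Wave peaks between 20 and 119 kb were called in 148, 98, 134 and 161 genes of control cells at 10, 20, 30 and 40 min, and in 86, 79, 86 and 133 genes of shTHOC5 cells. At 10 min 77 of these were in this range in both series, whereas 41 of the control genes stood at the first position and 20 between the TSS and 5 kb in shTHOC5 cells. The last 1 kb of the window, where a wave that had left it could be recorded, held 28, 8, 29 and 15 wave peaks in control and 9, 4, 4 and 11 in shTHOC5 cells. Between 5 and 20 kb the number grew from 58 to 161, 206 and 251 genes in control and from 25 to 120, 232 and 276 genes in shTHOC5 cells.

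**Figure D1:**
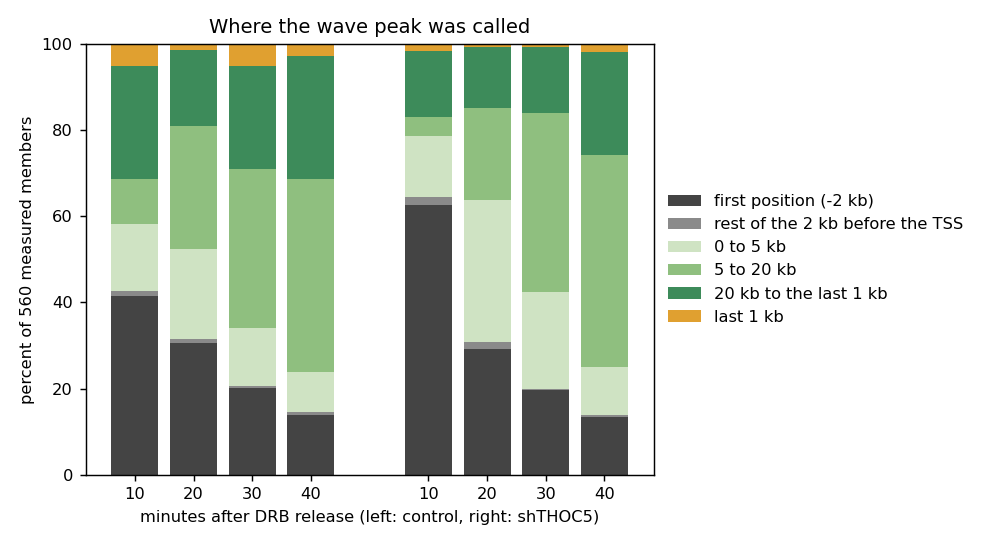
Share of the 560 measured genes, in percent, by the place of the wave peak at each release time in minutes, with control cells in the left bars and shTHOC5 cells in the right bars. The dark segment at the first position falls from 41.6% to 13.9% in control and from 62.7% to 13.4% in shTHOC5 cells.

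Without the coverage floor the control medians did not move steadily, at 7.58, 6.06, 10.8 and 11.0 kb over all 1301 genes, while those of shTHOC5 cells moved from the first position to 3.31, 6.12 and 9.13 kb. Genes 200 to 300 kb wide, whose window also lies wholly inside the gene, had measured medians of 2.47, 4.76, 8.04 and 9.10 kb in control and the first position, 4.14, 5.95 and 8.57 kb in shTHOC5 cells. These values stood within 1 kb of those of the genes 120 to 200 kb wide at every time, and the difference between the width classes was not tested.

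Gene by gene, the shTHOC5 minus control difference of the wave peak had medians of -0.61, -0.30, -1.17 and -0.38 kb at 10, 20, 30 and 40 min. In these counts nearer means less far downstream, which includes wave peaks at the first position, upstream of the TSS, and farther means farther downstream. At 10 min the shTHOC5 wave peak was over 1 kb nearer in 264 measured genes (47.1%), beside 43.4% of all 2298 measured listed genes. It was over 1 kb farther in 19 (3.39%), beside 8.92%. At 20 min it was nearer in 236 genes (42.1%, beside 40.9%) and farther in 93 (16.6%, beside 17.1%). At 30 min it was nearer in 288 genes (51.4%, beside 46.9%) and farther in 86 (15.4%, beside 17.7%). At 40 min it was nearer in 248 genes (44.3%, beside 41.3%) and farther in 143 (25.5%, beside 22.4%). The shares nearer were thus above those of all listed genes by under 5 percentage points, and the share farther was highest at 40 min in both. The medians are held near 0 by genes with the same position to the base pair in both series, which numbered 230, 134, 92 and 59 at the 4 times. At 10 min 57, 14, 41 and 9 of the genes counted as nearer had the shTHOC5 wave peak at the first position. Their control wave peaks lay between the TSS and 5 kb, between 5 and 20 kb, between 20 and 119 kb and in the last 1 kb, respectively.

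Where both wave peaks lay inside the window, that is, neither at the first position nor in the last 1 kb, the median difference was -2.89 kb over 178 genes (10 min), -1.39 kb over 347 (20 min), -1.85 kb over 397 (30 min) and -0.85 kb over 441 (40 min). In these genes the wave peak was over 1 kb nearer in shTHOC5 cells in 69.7%, 57.1%, 61.0% and 49.2%. Differences of over 20 kb toward the TSS were found in 97, 24, 87 and 62 of the 560 measured genes at 10, 20, 30 and 40 min. Differences of over 20 kb away from it were found in 7, 4, 5 and 34. Of all 2298 measured listed genes, 349, 146, 335 and 225 differed so toward the TSS and 57, 57, 71 and 123 away from it. The large differences thus lay mostly toward the TSS at 10 and 30 min, and at 40 min in both directions, here as in all measured listed genes.

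**Figure D2:**
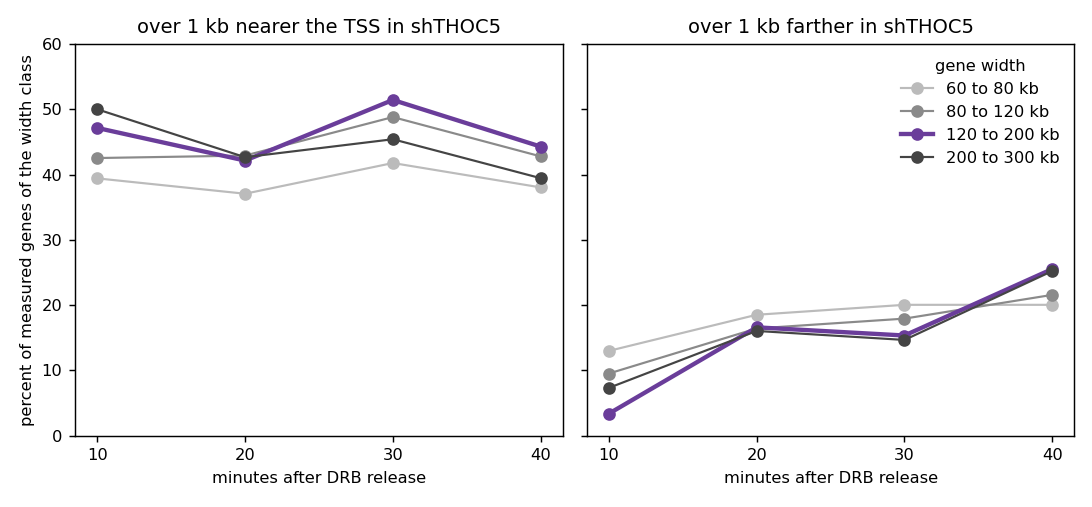
Percent of measured genes whose wave peak was over 1 kb nearer, that is, less far downstream (left), or over 1 kb farther (right) in shTHOC5 than in control cells. Shares are plotted against minutes after DRB release for 4 gene width classes. The purple line, genes 120 to 200 kb wide, stands at 47.1%, 42.1%, 51.4% and 44.3% on the left and rises from 3.39% to 25.5% on the right.

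A wave that moves only forward gives wave peaks in order, each farther downstream than the one before. This order was found in 127 of the 560 measured genes of control cells (22.7%, beside 20.4% of all measured listed genes) and in 304 genes of shTHOC5 cells (54.3%, beside 43.7%). The wave peaks were in order in both series in 115 genes, only in shTHOC5 cells in 189, only in control cells in 12 and in neither in 244. The wave peak moved upstream from 10 to 20 min in 28.8% of genes in control and 8.04% in shTHOC5 cells, from 20 to 30 min in 12.1% and 4.11%, and from 30 to 40 min in 30.2% and 9.64%. Upstream moves were therefore the more frequent in control cells at each step, and least frequent from 20 to 30 min in both series. A wave peak at the first position cannot move upstream, and at 10 min 41.6% of control and 62.7% of shTHOC5 genes stood there. At 20 min these shares were 30.5% and 29.3%, and at 30 min 20.2% and 19.6%. In the other width classes the order was found in 17.0% (control) and 36.1% (shTHOC5) of genes 60 to 80 kb wide, 21.6% and 41.0% at 80 to 120 kb, and 21.6% and 51.8% at 200 to 300 kb.

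Jumps of over 20 kb downstream between neighbouring times occurred in 13, 75 and 55 measured genes of control cells and in 8, 7 and 52 genes of shTHOC5 cells for the steps 10 to 20, 20 to 30 and 30 to 40 min. Of all 2298 measured listed genes, such jumps occurred in 126, 296 and 185 in control and in 99, 80 and 193 in shTHOC5 cells. The count was thus highest for the step from 20 to 30 min in control cells and for the last step in shTHOC5 cells, in this class as in all measured listed genes. Wave peaks stood still, all 4 within 1 kb, in 77 genes of control and 75 of shTHOC5 cells, and of these 72 and 73 stood at the first position. In 53 genes the wave peak was at the first position at all 4 times in both series.

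Genes differed by course in what the annotation shows upstream of them, over the 528 measured genes whose width matched it. Of 48 genes at the first position throughout in both series, 33 (68.8%) had another protein-coding gene reaching into the 2 kb upstream of the TSS, beside 116 of 528 (22.0%) in all. Among genes in order in both series this was so in 11 of 107 (10.3%), and among those in order only in shTHOC5 cells in 25 of 177 (14.1%). The highest control coverages among the genes that stayed at the first position were those of ANKRD26 at 687 rpm, PCNT, a centrosomal scaffold gene, at 582 rpm and VMP1, which encodes an autophagy protein, at 580 rpm. PTRH2 reaches into the 2 kb in front of VMP1 and C21orf58 into those in front of PCNT, and none was annotated there for ANKRD26. These 3 genes were chosen after their values were seen. The first intron had a median length of 27.6 kb in genes in order in both series, 27.1 kb in those in order only in shTHOC5 cells and 15.7 kb in those that stayed at the first position. The GC content of the window had medians of 41.2%, 40.1% and 39.8% in the same order, so that it differed little between courses. Coverage was higher in the genes in order in both series, with medians of 292 rpm in control and 288 rpm in shTHOC5 cells, than in those at the first position throughout, with 182 and 204 rpm. The part of neighbouring genes and of coverage in these courses was not tested.

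Far wave peaks often lay shortly downstream of an annotated start inside the gene, again over the 528 measured genes whose width matched the annotation. Of 83 wave peaks between 20 and 119 kb in shTHOC5 cells at 10 min, 56 (67.5%) had the start of a GENCODE basic transcript of the same gene within 10 kb upstream, whereas stretches of 10 kb downstream of such starts covered on average 11.4% of this range in the same genes. In control cells at 10 min this was so for 53 of 141 far wave peaks (37.6%), with 8.38% of the range covered. At 20, 30 and 40 min the shares were 77.9%, 71.4% and 40.9% in shTHOC5 cells and 63.2%, 32.6% and 24.0% in control cells. Far wave peaks thus lay within 10 kb of such a start more often in shTHOC5 than in control cells at each time. The share was lowest at 40 min in both series. A wave peak that moves on from such a start can pass this fixed limit with time. In the 56 genes followed below, the 40-min median lay 10.1 kb past the start in control cells, beyond the limit, and 8.90 kb in shTHOC5 cells. How far the limit alone sets the low share at 40 min, or the gap between the series, was not tested. The limits of 20 and 10 kb were chosen after the values were seen, and no test was made.

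For those 56 genes the internal start nearest upstream of the 10-min wave peak of shTHOC5 cells was fixed and the wave peaks were counted from it. In shTHOC5 cells the median distance was 2.41 kb at 10 min, which the choice of the start holds under 10 kb, and then 4.76, 6.46 and 8.90 kb. In control cells, whose values were not used to choose the start, it was 4.64, 6.53, 9.54 and 10.1 kb. The medians of both series thus moved downstream from the internal start at each step. The wave peak was over 1 kb nearer in shTHOC5 cells in 36, 34, 37 and 28 of the 56 genes and over 1 kb farther in 1, 5, 7 and 15, with median differences of -2.23, -1.70, -2.58 and -0.95 kb, and the direction at 10 min shares the value that fixed the start. At the internal starts 48 of 56 sequences of 250 bases held at least 10 CG dinucleotides, beside 24 of 56 at the gene starts of the same genes and 425 of 528 (80.5%) at the gene starts of all measured genes with the same width. NR3C1 and BCOR, printed above, show this contrast, and NMT1, with 9 CG dinucleotides at the chosen internal start, does not reach this count. NMT1 also has basic transcript starts at 103.31 and 103.33 kb, whose CG dinucleotides were not counted.

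**Figure D3:**
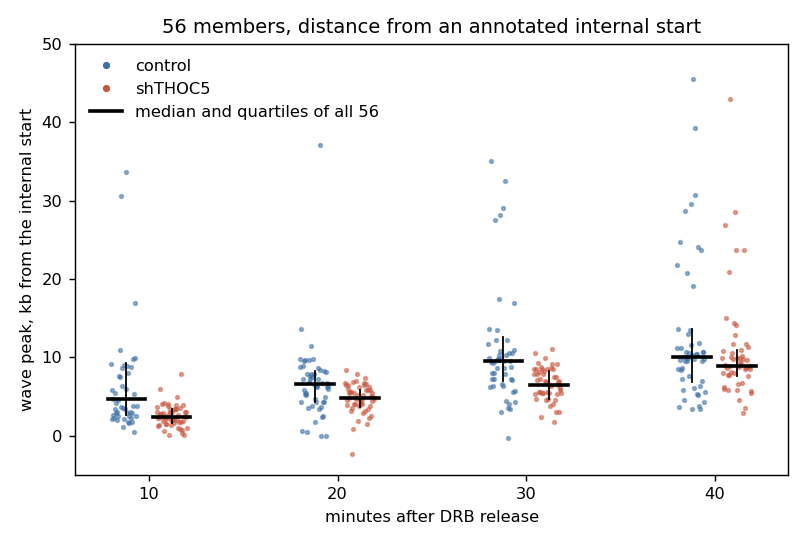
Distance of the wave peak from the annotated internal start, in kb, against minutes after DRB release, for 56 genes, each point a gene and each black bar the median with its quartiles. The median moves from 4.64 to 10.1 kb in control (blue) and from 2.41 to 8.90 kb in shTHOC5 cells (red), and 32 of 448 points lie outside the axis.

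RTN4 (ENSG00000115310, chr2:54972187-55112621, minus strand) encodes the reticulon Nogo and carries 6 basic transcript starts between 61.8 and 65.7 kb inside the gene and 1 at 102.2 kb. Its wave peak in control cells lay at 65.0, 65.8, 67.5 and 120 kb at 10, 20, 30 and 40 min. In shTHOC5 cells it lay at 64.3, 66.8, 67.9 and 87.1 kb. Both series thus moved by a few kb over the first 3 times, and at 40 min the wave peaks stood on either side of the start at 102.2 kb, the control one at the last position of the window. BCOR (ENSG00000183337, chrX:40049815-40177329, minus strand) had wave peaks at 85.8, 90.0, 90.6 and 105.9 kb in control and at 83.6, 87.1, 89.6 and 108.01 kb in shTHOC5 cells. The wave peak was the nearer in shTHOC5 cells at the first 3 times and the farther at 40 min. Both 40-min wave peaks lay downstream of a further basic transcript start of BCOR at 99.4 kb. NR3C1 (ENSG00000113580, chr5:143277931-143435512, minus strand) had wave peaks at 33.3, 33.9, 35.2 and 35.6 kb in control and at 34.3, 36.5, 38.6 and 42.0 kb in shTHOC5 cells. Here the wave peak was farther in shTHOC5 cells at all 4 times, by between 0.914 kb (10 min) and 6.44 kb (40 min), and the coverage was higher, at 130 rpm in control and 279 rpm in shTHOC5 cells. NMT1 (ENSG00000136448, chr17:44957992-45109016, plus strand) had wave peaks at 109.98, 110.3, 113.5 and 115.3 kb in control and at 105.7, 108.4, 110.3 and 117.8 kb in shTHOC5 cells, again nearer at the first 3 times and farther at the last. OSTM1, which encodes a lysosomal partner of a chloride transporter, had wave peaks at 91.5, 92.8, 94.96 and 120 kb in control and at 91.2, 91.9, 92.8 and 94.6 kb in shTHOC5 cells. The listed widths of OSTM1, and of PEPD and USP24 described later, differ from those of GENCODE release 44, so their distances from annotated starts were not computed.

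The course of the wave can be followed through all 8 libraries in 39 measured genes, in which the wave peaks were in order in both series and the 10-min wave peak lay at or downstream of the TSS in both. In 20 of them it lay within 20 kb of the TSS in both series and in 18 at 20 kb or farther in both. The first 20 had median wave peaks of 5.59, 7.40, 9.64 and 14.4 kb in control and 2.55, 6.27, 8.11 and 10.4 kb in shTHOC5 cells. The other 18 had medians of 60.9, 62.9, 64.2 and 68.1 kb in control and 60.6, 62.9, 64.1 and 64.5 kb in shTHOC5 cells. The medians of the genes near the TSS were thus nearer in shTHOC5 cells at all 4 times, while those of the far genes differed by under 1 kb until 30 min. Of the 17 far genes with the annotated width, 16 had a basic transcript start within 10 kb upstream of the 10-min wave peak in both series. Over all 39 genes the wave peak was over 1 kb nearer in shTHOC5 cells in 21, 20, 21 and 18 genes and over 1 kb farther in 2, 3, 2 and 8.

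**Figure D4:**
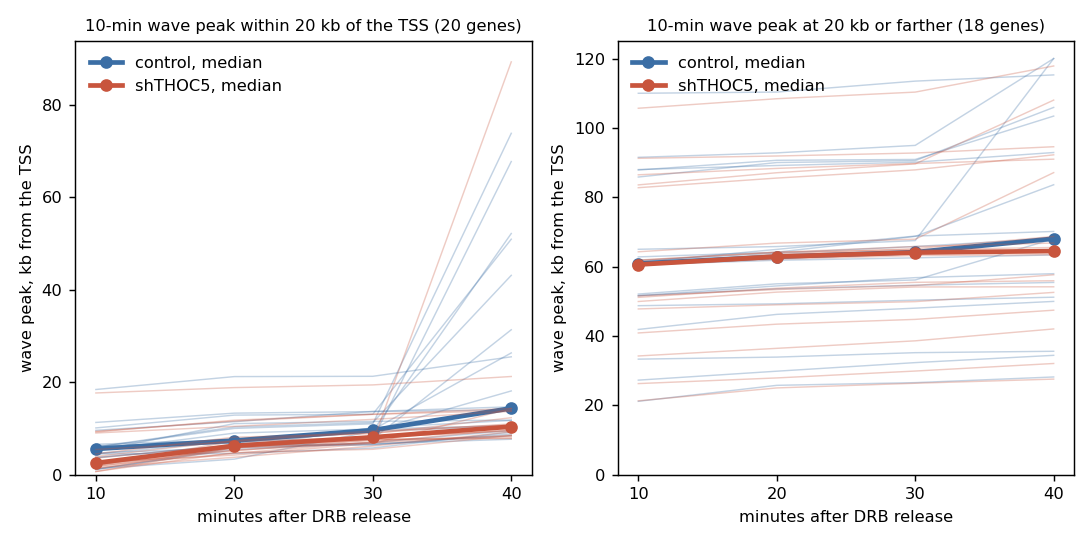
Wave peak in kb from the TSS against minutes after DRB release for genes whose wave peaks kept their order in the 2 series, 20 genes with the 10-min wave peak within 20 kb of the TSS (left) and 18 at 20 kb or farther (right), with thin lines for genes and thick lines for medians. On the left the medians end at 14.4 kb in control (blue) and 10.4 kb in shTHOC5 cells (red), and several control lines leave the others only between 30 and 40 min.

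Among the largest differences toward the TSS at 40 min in these 39 genes, those of STK24, RAI1 and MPRIP came with a jump of the control wave peak. STK24 (ENSG00000102572, chr13:98445185-98577940, minus strand), a Ste20-like kinase gene, had control wave peaks at 5.97, 10.03, 11.01 and 73.8 kb and shTHOC5 wave peaks at 1.99, 7.31, 9.09 and 11.0 kb. RAI1 (ENSG00000108557, chr17:17681458-17811453, plus strand) had control wave peaks at 10.1, 12.9, 13.1 and 50.9 kb and shTHOC5 wave peaks at 9.26, 11.8, 13.1 and 14.3 kb. MPRIP (ENSG00000133030, chr17:17042457-17217679, plus strand), whose product binds myosin phosphatase and RhoA, had control wave peaks at 5.99, 10.3, 11.3 and 43.1 kb and shTHOC5 wave peaks at 1.27, 6.04, 7.69 and 7.96 kb. In these 3 genes the series differed by less than 5 kb until 30 min and by -62.8, -36.6 and -35.2 kb (shTHOC5 minus control) at 40 min.

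Within the same 39 genes the 4 most positive differences at 40 min belonged to CABLES1, NR3C1, NMT1 and PDS5A. CABLES1, whose product links cyclin-dependent and Abl kinases, had control wave peaks at 4.51, 7.26, 7.65 and 67.7 kb and shTHOC5 wave peaks at 1.90, 4.64, 7.11 and 89.3 kb. Its 40-min wave peaks in both series lie where TMEM241 overlaps the gene, and the strand setting of the counting is not given in the sources used here. PDS5A, a cohesin regulator gene, had control wave peaks at 4.70, 5.85, 10.2 and 11.7 kb and shTHOC5 wave peaks at 2.70, 4.26, 6.79 and 14.3 kb. A processed pseudogene, PABPC1P1, is annotated within 1 kb of its early wave peaks in both series, so reads there may be shared with the parent gene. NR3C1 alone among these 4 was farther in shTHOC5 cells at every time.

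The deposited elongation rate counts the wave from the start of the window at 0 min, so a gene with a far first wave peak receives a high rate. Among the slowest control rates of the 39 genes were those of FAM171A1 at 0.223 kb/min and SLMAP, which encodes a tail-anchored membrane protein, at 0.244 kb/min. In shTHOC5 cells these rates were 0.264 and 0.289 kb/min, so both were higher there. FAM171A1 had control wave peaks at 3.74, 6.40, 6.71 and 7.68 kb and shTHOC5 wave peaks at 1.76, 5.81, 7.50 and 8.31 kb. SLMAP had control wave peaks at 3.68, 6.37, 6.44 and 8.84 kb and shTHOC5 wave peaks at 2.09, 6.10, 8.06 and 9.47 kb. In both genes the wave peak of shTHOC5 cells was the nearer at 10 and 20 min and the farther at 30 and 40 min. The 3 fastest control rates were those of OSTM1 at 2.47 kb/min, RTN4 at 2.47 kb/min and NMT1 at 2.38 kb/min, with 1.95, 1.82 and 2.44 kb/min in shTHOC5 cells. Over the 4 release times alone, NMT1 had slopes of 0.190 (control) and 0.385 kb/min (shTHOC5).

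In the 18 far genes the deposited rates had medians of 1.44 (control) and 1.36 kb/min (shTHOC5), and the median slope over the 4 release times was 0.229 and 0.194 kb/min. In the 20 genes near the TSS the deposited rates were 0.360 and 0.301 kb/min and the slopes 0.242 and 0.226 kb/min. The high rates of the far genes were therefore not seen in the movement between 10 and 40 min. The authors' filter mark kept 52 of the 1301 genes in control cells, 121 in shTHOC5 cells and 22 in both. In these 22 genes control rates averaged 0.953 ± 0.719 kb/min and shTHOC5 rates 0.766 ± 0.691 kb/min (mean ± SD across genes). The ratio of shTHOC5 to control rate had a median of 0.959 and ranged from 0.211 to 1.18, and it was below 1 in 13 of the 22 genes. The ratio of the slopes over the 4 release times had a median of 1.00 in the same genes.

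The coverage of the measured genes changed by a median of 0.07 on the log2 scale with 1 rpm added, shTHOC5 over control, beside 0.01 over all measured listed genes. It was over 1.5-fold higher in shTHOC5 cells in 96 genes (17.1%, beside 13.6%) and over 1.5-fold lower in 64 (11.4%, beside 10.3%). Coverage is relative to the listed genes of a series, and fewer contributing cells and less RNA per cell cannot be told apart in it.

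The 4 largest falls of coverage among genes over the floor in a series were those of HFM1, CMTM8, PEPD and CACNG2. HFM1 (ENSG00000162669, chr1:91260766-91404856, minus strand), the gene of a meiotic DNA helicase, had 1660 rpm in control and 69.8 rpm in shTHOC5 cells, a ratio of 23.8 of control to shTHOC5. Its control wave peaks lay at 85.1, 16.1, 17.7 and 17.1 kb, and those of shTHOC5 cells at the first position at the first 3 times and at 16.5 kb at 40 min. The wave peaks between 16 and 18 kb were thus found in both series. CMTM8, which encodes a MARVEL-domain membrane protein, had 209 and 41.2 rpm, and PEPD, the prolidase gene, had 725 and 162 rpm. PEPD had control wave peaks at 71.9, 7.22, 12.8 and 16.9 kb, and in shTHOC5 cells at the first position and then 1.35, 5.17 and 11.3 kb. Its wave peak was nearer in shTHOC5 cells at all 4 times. CACNG2, which encodes the neuronal receptor subunit stargazin, had 102 and 29.5 rpm.

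The 4 largest rises were those of MATN2, SEMA3C, DNMBP and NEDD4, all under the floor in control cells. MATN2, an extracellular matrix gene, had 7.58 rpm in control and 112 rpm in shTHOC5 cells, and SEMA3C, which encodes a secreted guidance cue, had 13.3 and 114 rpm. DNMBP, which encodes an activator of the small GTPase CDC42, had 56.1 and 381 rpm, and NEDD4, a ubiquitin ligase gene, had 19.9 and 124 rpm. The wave peaks of DNMBP lay at 3.63, 10.5, 41.3 and 7.51 kb in control and at 2.21, 4.70, 6.77 and 44.3 kb in shTHOC5 cells, in order only in the latter. NEDD4 had its wave peak at the first position at 3 of the 4 times in each series, with 36.6 kb at 30 min in control and 8.84 kb at 40 min in shTHOC5 cells. Both the rises and the falls rest on 1 value a series.

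**Figure D5:**
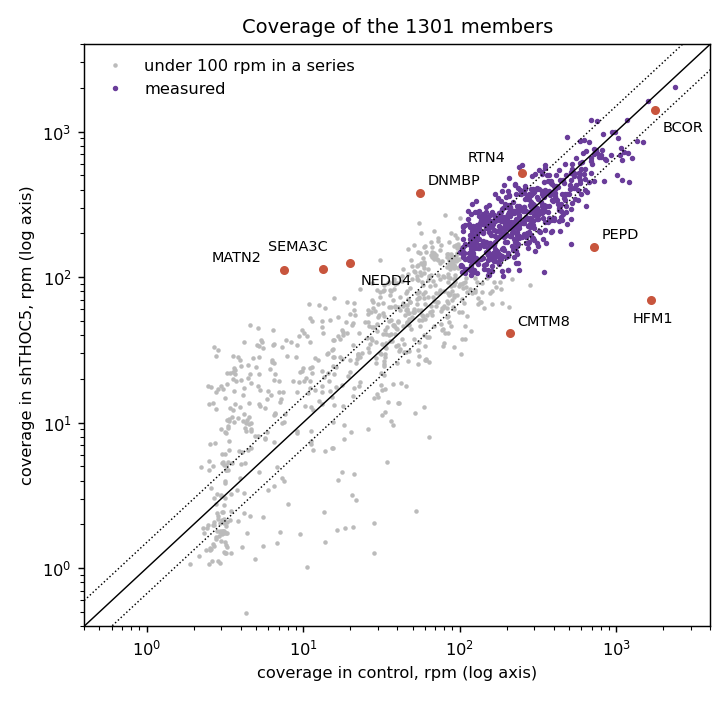
Coverage of the window in shTHOC5 against control cells, in rpm on log axes, for the 1301 genes, with measured genes in purple, genes under 100 rpm in a series in grey and the named genes in red. The solid line marks equal coverage and the dotted lines 1.5-fold. HFM1 stands far below the lines at 1660 and 69.8 rpm, MATN2 far above at 7.58 and 112 rpm, and 1 gene lies off the axes.

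PIN4, BCOR and HFM1 had the 3 highest control coverages. PIN4, a peptidyl-prolyl isomerase gene, had 2378 rpm in control and 2027 rpm in shTHOC5 cells. Its wave peaks lay at 93.3, 92.3, 93.0 and 92.6 kb in control and at 93.2, 91.7, 91.8 and 92.9 kb in shTHOC5 cells. They thus stayed within 2 kb in all 8 libraries, at a place where GENCODE annotates the ribosomal protein gene RPS4X, so the coverage and the wave peaks of PIN4 cannot be told apart from those of RPS4X. BCOR had 1775 and 1408 rpm.

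Families were formed by symbol stems and described by counts, and 364 of the 1301 genes belonged to at least 1 of 10 families. At 40 min 41.3% of all measured listed genes were over 1 kb nearer in shTHOC5 cells and 22.4% farther, and the counts of the families stand beside these shares. Genes of chromatin modifiers and remodellers were measured in 28 of 35 cases. At 40 min the wave peak was over 1 kb nearer in shTHOC5 cells in 21 (75%) and farther in 3 (10.7%). The median difference at 40 min was -3.36 kb. At 10 min 13 of the 28 were nearer and 2 farther, beside 43.4% and 8.92% of all measured listed genes. SMARCC1, the core SWI/SNF subunit gene with the highest coverage of this family, had control wave peaks at 1.73, 4.66, 5.41 and 6.59 kb. In shTHOC5 cells its wave peaks lay at the first position and then 1.12, 4.27 and 5.21 kb, nearer the TSS at 20, 30 and 40 min. Its coverage was 1188 rpm in control and 710 rpm in shTHOC5 cells. Ubiquitin ligases and deubiquitinases were measured in 34 of 43 cases, with 16 nearer (47.1%) and 8 farther (23.5%) at 40 min. USP9X, their most covered gene, had its wave peak at the first position at 10 min in both series and then at 3.45, 6.86 and 9.72 kb in control and 6.36, 7.55 and 9.07 kb in shTHOC5 cells. It was thus farther in shTHOC5 cells at 20 and 30 min and nearer at 40 min.

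Protein kinases were measured in 34 of 56 cases, with 12 nearer and 12 farther at 40 min (35.3% each, beside 41.3% and 22.4%). WNK1, which regulates ion transport, had control wave peaks at 5.57, 3.18, 11.01 and 12.3 kb, and in shTHOC5 cells at the first position and then 5.35, 8.43 and 9.57 kb. Genes of the transcription and RNA processing machinery were measured in 27 of 33 cases, with 10 nearer (37.0%) and 7 farther (25.9%). Small GTPases and their regulators were measured in 24 of 52 cases, with 12 nearer (50.0%) and 5 farther (20.8%). RAB7A, a late endosomal GTPase gene with basic transcript starts at 32.5 kb, had control wave peaks at 41.4, 40.9, 42.8 and 42.9 kb and shTHOC5 wave peaks at 37.4, 39.1, 41.0 and 42.7 kb. The latter moved in order, and the series met within 1 kb at 40 min.

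Genes of cytoskeletal motors and actin regulators were measured in 10 of 22 cases, with 4 nearer and 2 farther at 40 min (40.0% and 20.0%, beside 41.3% and 22.4%). VCL, the vinculin gene, had control wave peaks at 5.92, 7.67, 9.56 and 18.1 kb and shTHOC5 wave peaks at 5.47, 7.19, 8.15 and 9.57 kb, so that the series parted mainly at 40 min. Extracellular matrix and adhesion genes were measured in 10 of 51 cases, with 5 nearer (50.0%) and 2 farther (20.0%). The stem of the catenins brought in CTNNBL1 as the most covered of this family, a gene whose product associates with the spliceosome, with wave peaks at 6.97, 8.56, 11.2 and 10.5 kb in control and 2.21, 6.64, 8.67 and 9.78 kb in shTHOC5 cells. Solute carriers were measured in 5 of 27 cases and zinc finger genes of the ZNF series in 5 of 19. SLC20A2, a phosphate transporter gene, stood at the first position in all 4 control libraries and left it in shTHOC5 cells only at 40 min, at 1.26 kb, and SMIM19 is annotated there. ZNF131 stood at the first position at 10 min in both series and then at 62.5, 63.4 and 65.1 kb in control and 61.5, 62.2 and 63.4 kb in shTHOC5 cells, downstream of transcript starts near 56 kb. Ion channels and neurotransmitter receptors were measured in 1 of 29 cases. That gene was TRPM7, a channel with a kinase domain, with wave peaks at the first position and then 2.21, 4.95 and 24.1 kb in control and 0.719, 1.77 and 9.01 kb in shTHOC5 cells. Another protein-coding gene, ENSG00000288645, is annotated within 1 kb of its wave peaks at 20, 30 and 40 min in both series. The share of genes measured was thus highest for RNA machinery, chromatin and ubiquitin genes and lowest for ion channels.

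ENAH, an actin regulator gene, USP24, a deubiquitinase gene, and OSBPL3, a lipid-transfer protein gene, are genes that the study shows. ENAH stood at the first position at 10 and 20 min in both series, and at 30 and 40 min its wave peak differed by -1.47 and -2.07 kb (shTHOC5 minus control). USP24 stood at the first position in both series at 10 min, and its wave peak differed by 1.08, -4.75 and -31.3 kb at 20, 30 and 40 min. OSBPL3 differed by -95.9 kb at 10 min and by 2.25, 7.55 and 2.47 kb at the later times. The direction at 40 min therefore differed among these 3 genes. Of the genes that the study classes as THOC5-dependent in 3′end cleavage, 55 are 120 to 200 kb wide and 46 of these were measured. Their median wave peaks were 2.53, 5.20, 7.11 and 11.0 kb in control and 0.045, 4.26, 6.35 and 8.46 kb in shTHOC5 cells. At 40 min 23 of the 46 (50.0%) were over 1 kb nearer in shTHOC5 cells and 13 (28.3%) farther. Among all 560 measured genes of this width these shares were 44.3% and 25.5%. At 10, 20 and 30 min 45.7%, 47.8% and 43.5% of the 46 were nearer, beside 47.1%, 42.1% and 51.4% of the 560. Farther were 6.52%, 21.7% and 17.4%, beside 3.39%, 16.6% and 15.4%. The share nearer was thus above that of the 560 at 20 and 40 min and below it at 10 and 30 min. Of the THOC5-independent class 8 genes were measured, of which 4 were nearer and 1 was farther at 40 min, too few to set beside the others.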

How the data were processed

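DRB/TTchem-seq tables of the 8 libraries in HEK293 cells were analysed, and the other samples of the series were not analysed here. The authors normalized the coverage of paired-end libraries to the sequencing depth and called a wave peak per gene and release time, as a bp position within the window, on GRCh38 per the labels. The aligner and the annotation used for these libraries are not given in the sources used here. The deposited coverage is named for RPKM but sums to 1000000 over the listed genes and was read as RPM, 1 value a gene and series. The low values were not whole multiples of 1 read, so the depth of each library, and the precision it would give, is unknown. The elongation rate and the filter mark were used as deposited, the rate as a score in kb/min. 0 columns of other samples were present.

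From these, distances from the TSS in kb were taken, a floor of 100 rpm in both series was set, and log2 coverage changes were computed with a pseudocount of 1 rpm. Genes, families and limits were chosen with earlier results of these data known. The genes named were, among genes with wave peaks in order and at or past the TSS in both series, the 4 most negative and 4 most positive differences at 40 min and the 3 slowest and 3 fastest control rates. Also named were the 4 highest control coverages, the 4 largest rises and falls of coverage among genes over the floor in a series, ENAH, USP24 and OSBPL3, and the most covered gene of each of 10 families. Of the genes this rule gives, 2 are not reported here. Groups came from the labels, and with 1 library per condition and time no test was made. The alternatives changed the floor, the width bounds, the thresholds, the pseudocount, the release times and the starts. The counting functions were tested on simulated data. Calculations ran in scipy 1.17.1, pandas 2.3.3 and numpy 2.4.6 under Python 3.11.15, and plots in matplotlib 3.10.9.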

Additional observations from a re-analysis of the deposited data

How the results depend on the processing

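The series were compared at the same release times throughout, no test over the times was made, and a block on replicates within a time could not be fitted because each group holds 1 library. With 174 alternatives for 31 values, 119 moved no count by over 1.5 times and no median out of its 95% interval over genes, and the rest are given here as values, whose causes were not tested.

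Measured genes numbered 560, but 1301 without a floor, 287 at 200 rpm and 22 with the filter mark in both series. Without a floor the median wave peak was 7.58, 6.06, 10.8 and 11.0 kb in control at 10, 20, 30 and 40 min and 9.13 kb in shTHOC5 cells at 40 min. Without wave peaks at the first position or in the last 1 kb it was 18.4, 7.02, 9.44 and 11.0 kb in control and 11.3, 5.05, 6.73 and 8.93 kb in shTHOC5 cells. In genes in order in both series it was 6.83, 8.72 and 11.7 kb in control and 4.92, 6.90 and 9.07 kb in shTHOC5 cells at 20, 30 and 40 min.

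Wave peaks were in order in 12.8% of control and 34.0% of shTHOC5 genes without a floor. Without 10, 20, 30 or 40 min they were in order over the other 3 times in 38.6%, 38.9%, 38.8% and 35.0% of control genes. In shTHOC5 cells these shares were 68.0%, 65.7%, 61.4% and 60.9%, each within 1.5 times the 54.3% over all 4 times. The median difference was -2.89, -1.39, -1.85 and -0.85 kb with both wave peaks inside the window, -14.3, -3.50, -11.6 and -2.24 kb as a mean, -0.98, -1.72 and -0.77 kb at 200 rpm at 20, 30 and 40 min, -1.16 and -1.71 kb in genes in order in both series at 20 and 40 min, and 0 kb without a floor at 40 min. The share farther in shTHOC5 cells at 10 min was 15.5% without a floor, 1.39% at 200 rpm, 6.09% in genes in order and 5.54% with a threshold of 0 kb, and in genes in order it was 9.57% at 30 min and 14.8% at 40 min. The share nearer moved by over 1.5 times under none of these.

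The median log2 coverage change was 0.22 without a floor and, reversed in sign, -0.0067 at 200 rpm. Coverage was 1.5-fold higher in 31.3% without a floor and in 9.41% at 200 rpm, and 2-fold higher in 3.75% and 2-fold lower in 2.14%. Chosen after the data were seen, a limit of 5 kb to an internal start gave 22.7% of far control wave peaks at 10 min. Without replicates or read numbers, the error of a single wave peak is unknown.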
